A study of Mus musculus with 6 samples.

Results

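The epidermal differentiation complex is a cluster of genes for the proteins of the cornified envelope, the crosslinked protein shell that replaces the membrane of a dying keratinocyte. The members were the genes listed by symbol as Sprr, Lce or S100a with a number, together with Flg, Flg2, Hrnr, Rptn, Lor, Ivl, Crct1, Crnn, Tchh, Tchhl1, Pglyrp3 and Pglyrp4, without predicted gene models and without 1 pseudogene. This gave 61 of the 30349 genes listed. All 61 are protein coding and lie on mouse chromosome 3 between 90511034 and 93564643 (GRCm38), a stretch of 3.05 Mb. Levels were measured by 3' digital gene expression, which counts reads near transcript ends, in primary epidermal keratinocytes of mice at postnatal day 2. There were 3 wild type cultures (replicates 13, 14 and 15) and 3 of the genotype p63 alphaKO (replicates 9, 10 and 11). Cells of both groups reached confluence in 5 to 6 days. The medium held 0.05 mM calcium, EGF at 2.5 ng/mL and serum (4%) that had been chelated. What p63 alphaKO removes from the p63 gene is not given in the sources used here, nor is it said whether the cultures of a group came from separate animals, so p-values measure only the spread between these cultures, which may be technical.

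Keratinocytes switch on these genes in order as they leave the basal layer. Involucrin and the small proline-rich (Sprr) proteins are laid down early, loricrin and the late cornified envelope (Lce) proteins later, and the large fused-type proteins, such as profilaggrin and repetin, bundle keratin or fill the envelope. Most S100a genes of the cluster encode small calcium-binding proteins, several of which are secreted as alarm or antimicrobial signals. The transcription factor p63 is needed to form the epidermis, and low calcium medium is used to hold keratinocytes short of terminal differentiation.

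Depth was 1699716 to 3215333 reads. Levels are given as CPM (reads of a gene per 1000000 of its library), and 3 reads came to 0.93 CPM at the highest depth and 1.76 CPM at the lowest. CPM are not scaled for gene length. Some members share transcript ends with other genes, and levels are compared between libraries and not between genes. Trp63, the gene of p63, was at 38.0, 53.2 and 48.9 CPM in wild type, against 49.8, 59.3 and 57.0 CPM in p63 alphaKO, which does not check the labels, since reads near the transcript end may lie outside what was removed. The basal keratins Krt5 and Krt14 stood at 8471 to 15124 CPM in every library, while the suprabasal marker set (Krt1, Krt10, Dsg1a and Calm4) reached 1840, 1776 and 2151 CPM in wild type, against 783, 1246 and 970 CPM in p63 alphaKO. Most of each sum was Calm4, at 1574, 1455 and 1697 CPM in wild type, against 672, 1191 and 891 CPM in p63 alphaKO. Replicate 10 had the highest sum of the p63 alphaKO libraries but their lowest Krt1 (31.0 CPM) and Krt10 (7.66 CPM). In these bulk cultures, fewer suprabasal cells and less RNA per cell cannot be told apart. On the first principal component (33.2% of the variance) p63 alphaKO replicate 11 (61.15) and, less far, wild type replicate 15 (13.55) stood apart from the other libraries (-26.86 to -8.74). On the second (22.9%) wild type lay at -38.98 to -2.97 and p63 alphaKO at 9.24 to 30.03. Skeletal muscle markers summed to 797 CPM in wild type replicate 15 and to 36.1 to 111 CPM in the other 5 libraries, and melanocyte markers to 297 CPM in wild type replicate 15, 223 CPM in p63 alphaKO replicate 11 and 534 to 1003 CPM in the other 4. Fibroblast markers summed to 5.88 to 43.4 CPM and endothelial markers to 0.62 to 4.70 CPM. Their part in the results was not tested.

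Promoter windows from RefSeq (GRCm38.p6, 250 bases before to 50 after each start) were found for 54 of the 61 members, 58 windows in all. The Sprr2 genes are shown because they are close copies whose fitted differences between the groups lay on both sides of 0. Each line gives the 210 bases before the start, 5′ to 3′, with capitals marking TGANTCA (the AP-1 motif, either strand), ATGCAAAT (the octamer motif, either strand, here as its reverse complement) and TATAA on the gene's strand between 40 and 20 bases before the start. No motif overlapped another here, and a window with several matches of a motif was counted once.
Sprr2k, chr3:92432372-92432581, plus strand: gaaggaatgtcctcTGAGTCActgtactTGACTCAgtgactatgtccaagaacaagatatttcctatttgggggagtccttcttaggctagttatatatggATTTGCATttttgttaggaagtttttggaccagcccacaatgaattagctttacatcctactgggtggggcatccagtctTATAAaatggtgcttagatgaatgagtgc
Sprr2d, chr3:92338930-92339139, plus strand: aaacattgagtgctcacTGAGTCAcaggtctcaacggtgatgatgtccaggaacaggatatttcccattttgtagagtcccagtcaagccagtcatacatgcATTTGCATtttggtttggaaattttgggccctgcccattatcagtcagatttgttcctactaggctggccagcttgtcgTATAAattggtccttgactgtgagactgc
Sprr2h, chr3:92385475-92385684, plus strand: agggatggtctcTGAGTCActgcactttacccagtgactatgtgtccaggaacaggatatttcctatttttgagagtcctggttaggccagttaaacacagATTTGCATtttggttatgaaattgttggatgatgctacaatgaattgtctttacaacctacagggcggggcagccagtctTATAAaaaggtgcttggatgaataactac
Sprr2b, chr3:92316495-92316704, plus strand: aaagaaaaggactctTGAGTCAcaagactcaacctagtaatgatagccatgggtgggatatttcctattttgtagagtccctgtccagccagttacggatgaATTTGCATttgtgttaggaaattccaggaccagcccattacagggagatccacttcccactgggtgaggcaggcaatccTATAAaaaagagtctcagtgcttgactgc
Sprr2a3, chr3:92285094-92285303, plus strand: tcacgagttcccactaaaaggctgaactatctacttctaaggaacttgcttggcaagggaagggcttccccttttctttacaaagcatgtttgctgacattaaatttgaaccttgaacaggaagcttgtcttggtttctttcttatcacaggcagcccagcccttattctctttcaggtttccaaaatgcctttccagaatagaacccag

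The first 4 windows carry all 3 motifs in 1 order, with TATAA at 29 bases before the start in each and the octamer at 108 or 109. Sprr2e, Sprr2f and Sprr2i hold the same 3 motifs, and the 7 genes were 64.6% to 91.9% identical to one another over the 210 bases (median 69.4%, 21 pairs). Sprr2k holds a second AP-1 match, 182 bases before its start. The windows before the RefSeq starts of Sprr2a1, Sprr2a2 and Sprr2a3 hold none of the 3. They were 47.4% to 51.9% identical to those of the other 7, and the identity of unrelated windows was not measured. The annotation (GENCODE vM21) also holds a shorter Sprr2a3 transcript starting at 92288566, and the bases before that start were not searched. Nor was any other start of Sprr2a1 or Sprr2a2 searched. Whether the promoters in use by these 3 genes hold the motifs is therefore not known here. Over all 32851 promoter windows, AP-1 was found in 7.81%, the octamer in 1.74% and TATAA in 3.52%; over the 58 member windows the shares were 31.0%, 12.1% and 34.5%. All 7 octamer matches were in Sprr2. AP-1 was found in 5 of 7 fused-type windows and both Sprr1 windows, and in none of the 13 Lce1 or 6 Lce3 windows. A match is a description of the letters and not a measured binding site.

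The comparison asks how these envelope genes differ between p63 alphaKO and wild type keratinocytes. No member passed the threshold, although 11 were at an unadjusted p under 0.05, 9 lower and 2 higher in p63 alphaKO. Of the 61 members, 54 reached a mean of 1 CPM and were tested. The test was limma on log2(CPM + 1) over 11716 genes, two-sided, with an adjusted p of 0.05 as the threshold; 0 of 54 members passed, where 0.0427% of all genes tested did. edgeR also called 0 members (2 of all genes), and DESeq2 called 1, Sprr2a3 (18 of all genes). At an unadjusted limma p under 0.05 stood 11 members (20.4%) against 6.36% of all genes; 9 were lower (16.7%, against 3.35% of all genes) and 2 higher (3.70%, against 3.01%). Wild type and p63 alphaKO libraries were fully separated for 6 members, 11.1%, and for 11.5% of all genes, so by that measure their share was near the background. Of these 6, 5 were lower (9.26%, against 5.09% of all genes). A fitted change of at least 2-fold was seen for 6 members (11.1%, against 4.74% of all genes): Crnn, Flg2, Pglyrp4, Rptn and Sprr2a3 lower, and S100a7a higher. In the fit 32 of 54 members lay lower (59.3%, against 49.3% of all genes), with a median log2 fold change, p63 alphaKO minus wild type, of -0.17 against 0.01 for all genes. With edgeR and DESeq2 it was 29 of 54 (53.7%, against 49.5% and 48.9% of all genes), with medians of -0.03 in both. In limma the lean was lost without p63 alphaKO replicate 9, where 24 of 55 lay lower (43.6%, against 50.1% of all genes) with a median of 0.02. It was larger without p63 alphaKO replicate 10, where 36 of 54 lay lower (66.7%, against 50.8% of all genes) with a median of -0.30. The count at an unadjusted p under 0.05 was 6 and 20 in those fits, and 5 and 4 without wild type replicate 13 or 14. Without both wild type replicate 15 and p63 alphaKO replicate 11, 37 of 56 lay lower (66.1%, against 47.5% of all genes, median -0.22). In that fit 14 members were at an unadjusted p under 0.05. Sprr2a3 passed there, 1 of 48 genes that did among 11627 tested, against 5 of 11716 with all libraries. These 2 libraries were picked by their place on the first principal component of the same data. The share of all genes at an unadjusted p under 0.05 was taken for the main fit alone.

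**Figure D1:**
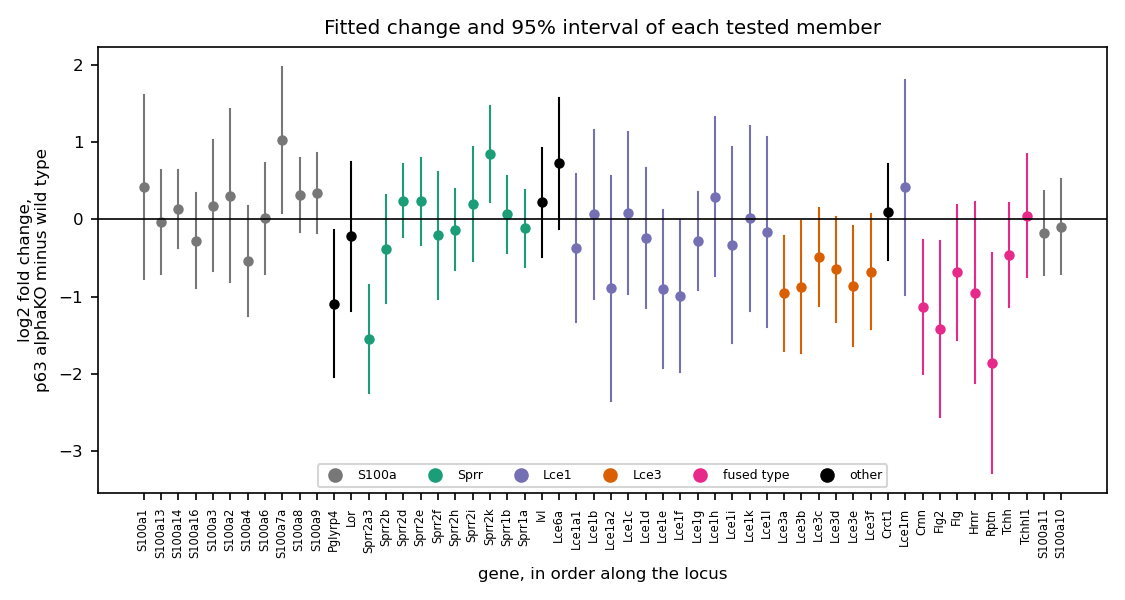
Fitted log2 fold change (p63 alphaKO minus wild type, vertical axis) of the 54 tested members in their order along the locus, with 95% intervals from limma and colours for the families (Lce6a is drawn with the others in black). The 6 Lce3 genes lie between -0.96 and -0.49 and the fused-type genes reach -1.86, with Crct1 (0.10) and Lce1m (0.41) between these stretches. The Sprr genes lie on both sides of 0.

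Envelope precursors of the Sprr family kept to both sides of 0. Sprr1a and Sprr1b encode crosslinked bridging proteins of the envelope. Sprr1b was at 2222, 1885 and 2040 CPM in wild type, against 1695, 2892 and 1986 CPM in p63 alphaKO. Sprr1a was at 1511, 1380 and 1723 CPM in wild type, against 1092, 1874 and 1387 CPM in p63 alphaKO. For both, p63 alphaKO replicate 9 was the lowest library and replicate 10 the highest, so the groups overlapped. In limma the log2 fold change of Sprr1b was 0.06 (SE 0.24, 95% interval -0.44 to 0.57, adjusted p = 0.995). That of Sprr1a was -0.11 (SE 0.24, 95% interval -0.61 to 0.38, limma adjusted p = 0.987). Both intervals leave out a change of 2-fold. Either sign turned when p63 alphaKO replicate 10 (Sprr1b, -0.16) or 9 (Sprr1a, 0.07) was left out.

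Of the 10 Sprr2 genes 8 were tested, 4 lower and 4 higher. Sprr2a3 was at 172, 208 and 131 CPM in wild type, against 81.7, 76.3 and 28.8 CPM in p63 alphaKO. All p63 alphaKO libraries lay below all wild type libraries, with replicate 11 the lowest. The fit put it 2.93-fold higher in wild type (log2 fold change -1.55, SE 0.33, limma adjusted p = 0.286), which did not pass. Leaving out p63 alphaKO replicate 11 gave -1.07, and the adjusted p over all fits ran from 0.00377 (limma without wild type replicate 15 and p63 alphaKO replicate 11) to 0.999. DESeq2 gave -1.46 (adjusted p = 0.0168). Sprr2a3 shares 62.2% to 80.1% of the 50-base words in the last 300 bases of its transcripts with other genes, among them Sprr2a1 and Sprr2a2, which had 16 and 0 reads in all 6 libraries. The annotated spans of Sprr2a1 and Sprr2a2 also overlap on the same strand. Reads from the 3 copies may therefore be split or dropped by the counting, and the level of each copy alone, Sprr2a3 among them, is uncertain.

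Sprr2k stood on the other side. It was at 43.4, 41.0 and 68.9 CPM in wild type, against 60.7, 120.6 and 99.3 CPM in p63 alphaKO. Wild type replicate 15 and p63 alphaKO replicate 9 overlapped, and the other p63 alphaKO libraries were above every wild type library. The log2 fold change was 0.84 (SE 0.29, limma adjusted p = 0.676). Sprr2h, at 1919, 1749 and 1434 CPM in wild type, against 1658, 2015 and 1088 CPM in p63 alphaKO, showed a log2 fold change of -0.13 (SE 0.25, 95% interval -0.66 to 0.39, limma adjusted p = 0.985). Sprr2d was at 214, 232 and 195 CPM in wild type, against 280, 293 and 195 CPM in p63 alphaKO. Sprr2e was at 107, 126 and 167 CPM and at 210, 109 and 159 CPM in the same order. Sprr2d (0.24), Sprr2e (0.23) and Sprr2i (0.20) lay a little higher and their groups overlapped.

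Among the lower-read Sprr2 genes single libraries set the range. Sprr2i had 30.8, 31.4 and 40.0 CPM in wild type, against 25.6, 75.0 and 30.6 CPM in p63 alphaKO, where replicate 10 alone was high. Sprr2b was at 48.7, 38.2 and 28.6 CPM in wild type, against 47.0, 25.0 and 20.0 CPM in p63 alphaKO, a log2 fold change of -0.38. Sprr2f had 29, 37 and 38 reads in wild type and 16, 21 and 26 reads in p63 alphaKO (9.11 to 12.1 CPM against 7.0 to 15.3 CPM, -0.20). The 10 Sprr2 genes together summed to 2544, 2438 and 2077 CPM in wild type, against 2370, 2722 and 1636 CPM in p63 alphaKO, so the family sum overlapped between the groups. Sprr3, an envelope precursor of mucosal epithelia, had 6, 0 and 4 reads in wild type and none in p63 alphaKO, so the groups overlapped at 0. With 3 reads set over the p63 alphaKO group, the observed wild type rate was 2.41-fold higher. That figure holds no error for the wild type count and is not a lower bound. Sprr4 had 1 read in all.

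Involucrin and loricrin, the early and the most abundant late scaffold of the envelope, were spread widely. Ivl was at 96.8, 101.7 and 169.0 CPM in wild type, against 74.4, 159.3 and 222.2 CPM in p63 alphaKO, a log2 fold change of 0.22 (SE 0.33, 95% interval -0.48 to 0.92, limma adjusted p = 0.968). Lor was at 144, 80.5 and 152 CPM in wild type, against 74.9, 301 and 48.8 CPM in p63 alphaKO. The p63 alphaKO libraries thus held both the highest and the lowest value of each gene. The log2 fold change of Lor was -0.22 in limma (SE 0.46, adjusted p = 0.987) and 0.15 in edgeR and DESeq2, and it was 0.31 without p63 alphaKO replicate 11 and -0.99 without replicate 10. Crct1, a cysteine-rich gene of the Lce stretch, was at 292, 239 and 325 CPM in wild type, against 169, 440 and 376 CPM in p63 alphaKO (0.10, SE 0.30, 95% interval -0.52 to 0.72, limma adjusted p = 0.993).

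All 6 Lce3 genes lay lower in p63 alphaKO, with a median log2 fold change of -0.77. They lay lower, 6 of 6, in each fit that kept the genes apart, with a median of -0.23 without p63 alphaKO replicate 9. Lce proteins are small cysteine-rich proteins added late to the envelope, and the LCE3 group is known for induction in damaged and psoriatic skin. Lce3a was at 36.5, 31.7 and 36.5 CPM in wild type, against 9.13, 25.7 and 22.3 CPM in p63 alphaKO. Lce3e was at 95.2, 82.1 and 84.8 CPM in wild type, against 20.6, 75.0 and 68.2 CPM in p63 alphaKO. The groups did not overlap for either gene, and p63 alphaKO replicate 9 was far below the other libraries in both. Lce3a had a log2 fold change of -0.96 (SE 0.35, limma adjusted p = 0.729) and Lce3e of -0.87 (SE 0.37, limma adjusted p = 0.758). Without p63 alphaKO replicate 9 these were -0.52 and -0.28.

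The other Lce3 genes overlapped between the groups. Lce3b was at 23.3, 23.6 and 34.3 CPM in wild type, against 6.85, 27.7 and 14.1 CPM in p63 alphaKO, a log2 fold change of -0.88 (SE 0.40, limma adjusted p = 0.775). Lce3c was at 326, 310 and 424 CPM and at 137, 378 and 297 CPM (-0.49, SE 0.30, limma adjusted p = 0.843). Lce3d was at 280, 266 and 301 CPM and at 91.3, 311 and 204 CPM (-0.65, SE 0.32, limma adjusted p = 0.794). In each of these, p63 alphaKO replicate 9 was again the lowest library and replicate 10 lay within or above the wild type range. Lce3f was at 97.1, 99.5 and 59.7 CPM in wild type, against 25.6, 81.6 and 65.8 CPM in p63 alphaKO (-0.68). Without p63 alphaKO replicate 9 the log2 fold changes of Lce3b, Lce3c, Lce3d and Lce3f were -0.41, -0.06, -0.16 and -0.18. Summed over the 6 genes, Lce3 was at 857, 813 and 941 CPM in wild type, against 290, 898 and 671 CPM in p63 alphaKO, a log2 fold change of -0.63 that was -0.16 without p63 alphaKO replicate 9. Lce3a to Lce3d share 5.18% to 42.2% of their 50-base end words with other Lce3 genes, and Lce3e and Lce3f share none.

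**Figure D2:**
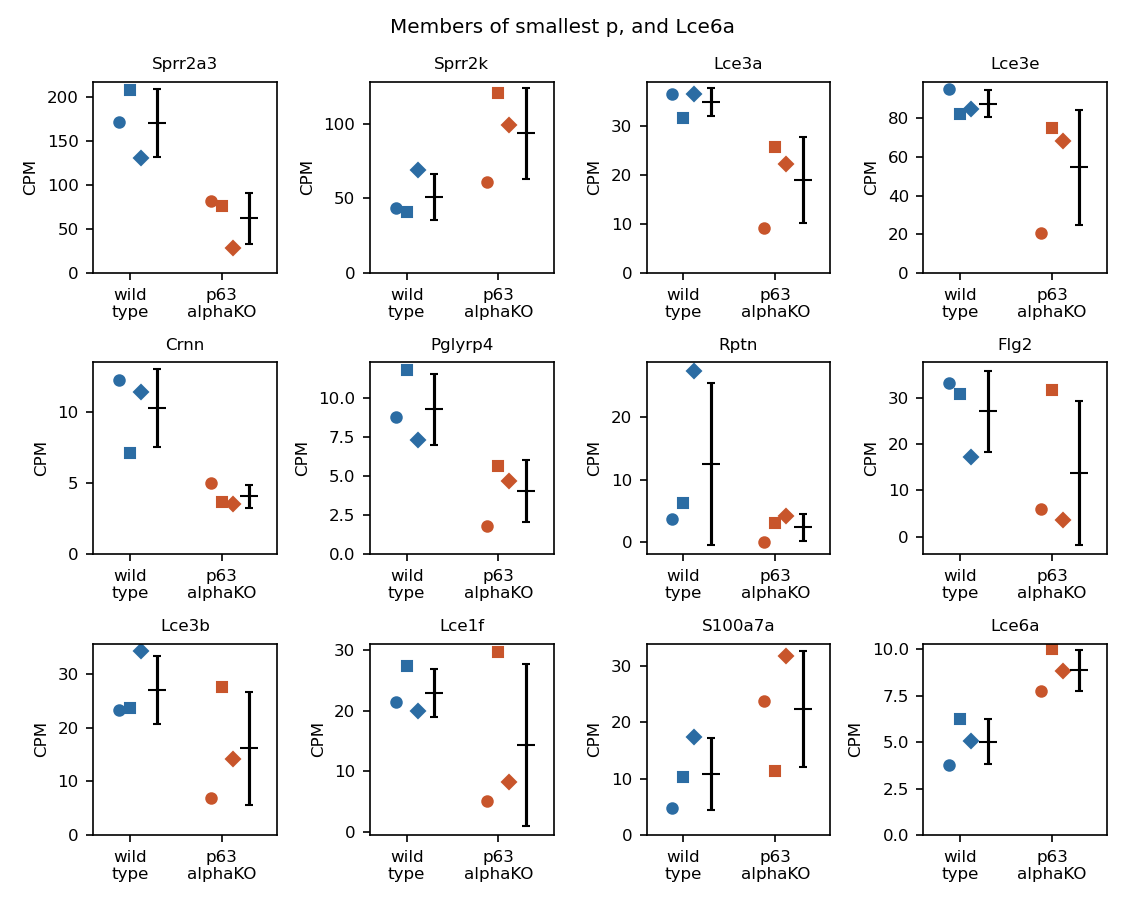
CPM of 12 members in each library: the 11 at an unadjusted p under 0.05, and Lce6a, whose groups did not overlap. Circles, squares and diamonds are replicates 13, 14 and 15 (wild type, blue) and 9, 10 and 11 (p63 alphaKO, orange), and the black bar is the mean with SD (n = 3). Lce3e of p63 alphaKO replicate 9 stands at 20.6 CPM, below 68.2 CPM in replicate 11.

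Lce1 genes separated the p63 alphaKO cultures from one another. Of 13 tested, 8 lay lower, with a median of -0.24, and 2 of 13 without p63 alphaKO replicate 9 but 12 of 13 without replicate 10. With edgeR and DESeq2 7 of 13 lay lower, with medians of -0.02 and -0.03. Summed over the 14 genes listed, Lce1 was at 268, 239 and 191 CPM in wild type, against 92.7, 394 and 144 CPM in p63 alphaKO. Replicate 10 was above the highest wild type library for 12 of the 13 tested genes, and replicate 9 was below the lowest wild type library for 11. Lce1g was at 79.2, 87.4 and 70.2 CPM in wild type, against 40.2, 103.6 and 64.1 CPM in p63 alphaKO, a log2 fold change of -0.28 (SE 0.30, limma adjusted p = 0.930). Lce1a1 was at 62.8, 44.1 and 33.7 CPM in wild type, against 17.4, 96.3 and 24.7 CPM in p63 alphaKO (-0.37). Both genes had their highest value in p63 alphaKO replicate 10 and their lowest in replicate 9. Lce1a2 repeated the split, with 17.9, 14.3 and 11.4 CPM in wild type, against 1.37, 40.7 and 4.70 CPM in p63 alphaKO. Its mean CPM was 14.6 in wild type and 15.6 in p63 alphaKO, while the limma log2 fold change was -0.89, and over all fits it ran from -2.06 to 0.14. That of Lce1a1 ran from -1.10 without p63 alphaKO replicate 10 to 0.11 without replicate 9.

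Lce1e was at 30.5, 29.2 and 22.6 CPM in wild type, against 7.31, 44.0 and 8.23 CPM in p63 alphaKO, a log2 fold change of -0.90. Lce1f was at 21.4, 27.4 and 20.0 CPM in wild type, against 5.02, 29.7 and 8.23 CPM in p63 alphaKO (-0.99, SE 0.47, limma adjusted p = 0.777). In both, replicates 9 and 11 were below every wild type library and replicate 10 was above. Without p63 alphaKO replicate 9 Lce1f was -0.50 and Lce1e -0.47, and without replicate 10 they were -1.67 and -1.69. Lce1d was at 11.6, 12.4 and 10.8 CPM and at 6.39, 21.0 and 6.47 CPM (-0.24). Lce1b was at 17.6, 8.08 and 4.13 CPM and at 6.39, 20.3 and 5.29 CPM (0.06). The remaining tested Lce1 genes had means of 1.82 to 5.07 CPM, with Lce1i at -0.33, Lce1l at -0.16, Lce1k at 0.01, Lce1c at 0.08, Lce1h at 0.29 and Lce1m at 0.41, and Lce1j had 3 reads in all. Of the Lce1 genes 10 share 9.56% to 32.7% of their 50-base end words with other genes, so single Lce1 levels are uncertain.

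Lce6a lay on the other side of 0 from Lce3. Its level was 3.77, 6.22 and 5.08 CPM in wild type (12, 20 and 16 reads) and 7.76, 10.0 and 8.82 CPM in p63 alphaKO (17, 30 and 15 reads). The groups did not overlap, and it was the 1 tested member with all p63 alphaKO libraries above all wild type libraries, 1.85% of the 54 against 6.45% of all genes. The log2 fold change of 0.73 (SE 0.40, limma adjusted p = 0.816) did not pass.

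**Figure D3:**
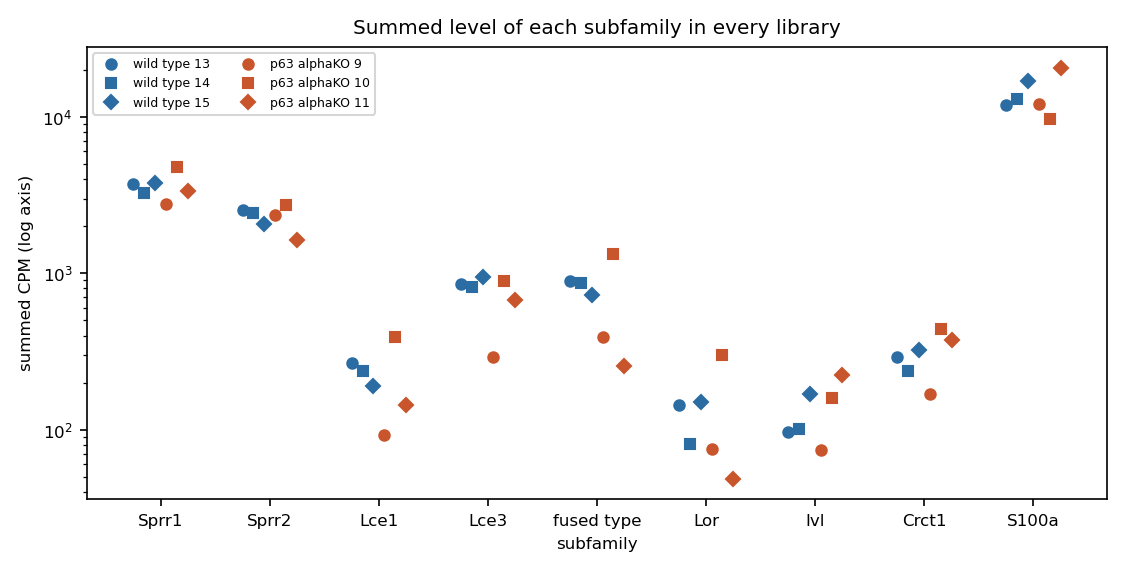
Summed CPM of each subfamily in every library (log axis), with circles, squares and diamonds for replicates 13, 14 and 15 (wild type, blue) and 9, 10 and 11 (p63 alphaKO, orange). In the Lce1, fused-type and Lor columns p63 alphaKO replicate 10 is the highest point and the other p63 alphaKO libraries are the lowest, as in Lce1 with 394 CPM against 92.7 and 144 CPM.

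Fused-type genes, which join an S100-like calcium-binding start to long repeats, lay lower in 6 of 7 cases (median log2 fold change -0.95). Flg encodes profilaggrin, the source of the filaggrin that packs keratin filaments. It was at 753, 765 and 612 CPM in wild type, against 344, 1191 and 205 CPM in p63 alphaKO. Flg was thus highest in p63 alphaKO replicate 10 and lowest in replicates 9 and 11. The fitted difference on the log2 scale was -0.69 (SE 0.42, limma adjusted p = 0.839), and -1.41 without replicate 10 and -0.14 without replicate 11. edgeR gave -0.32. Flg2, a filaggrin relative, was at 33.3, 30.8 and 17.2 CPM in wild type, against 5.94, 31.7 and 3.53 CPM in p63 alphaKO (-1.42, SE 0.54, limma adjusted p = 0.729). It showed the same split as Flg, with replicates 9 and 11 below every wild type library and replicate 10 within the wild type range. Without p63 alphaKO replicate 10 the log2 fold change of Flg2 was -2.27 (limma adjusted p = 0.0709), and without replicate 11 it was -0.85.

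Crnn, encoding cornulin, was the fused-type gene whose groups did not overlap. Its level was 12.3, 7.15 and 11.4 CPM in wild type (39, 23 and 36 reads) and 5.02, 3.67 and 3.53 CPM in p63 alphaKO (11, 11 and 6 reads). Unlike Flg and Flg2, it was low in replicate 10 as well, with a log2 fold change of -1.13 (SE 0.41, limma adjusted p = 0.716). Rptn, encoding repetin, had 12, 20 and 86 reads in wild type (3.77 to 27.3 CPM), against 0, 9 and 7 reads in p63 alphaKO. The high wild type value was that of replicate 15, and the other wild type libraries were close to p63 alphaKO replicates 10 and 11. The log2 fold change was -1.86 (SE 0.68, limma adjusted p = 0.716), and -1.10 without wild type replicate 15.

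Tchh, encoding trichohyalin of the hair root sheath, was at 66.0, 48.2 and 47.0 CPM in wild type, against 30.1, 66.0 and 28.2 CPM in p63 alphaKO, a log2 fold change of -0.46 (SE 0.32, limma adjusted p = 0.885). Hrnr, encoding hornerin, had 20, 17 and 12 reads in wild type, against 2, 19 and 2 reads in p63 alphaKO (-0.95). Both repeated the split between replicate 10 and the other p63 alphaKO cultures, and without replicate 10 they were at -0.84 and -1.56. Tchhl1, a trichohyalin relative, was at 12.6, 9.33 and 12.1 CPM in wild type, against 7.76, 18.0 and 11.2 CPM in p63 alphaKO (0.05). The 7 fused-type genes came to 887, 872 and 731 CPM in wild type, against 394, 1319 and 257 CPM in p63 alphaKO. The log2 fold change of this sum was -0.69, with -1.38 without p63 alphaKO replicate 10 and -0.20 without replicate 11.

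The peptidoglycan recognition proteins, secreted antibacterial proteins, pointed in opposite directions at few reads. Pglyrp4 had 8.80, 11.8 and 7.31 CPM in wild type (28, 38 and 23 reads) and 1.83, 5.67 and 4.70 CPM in p63 alphaKO (4, 17 and 8 reads). Its groups did not overlap, with a log2 fold change of -1.09 (SE 0.45, limma adjusted p = 0.758), and -0.72 without p63 alphaKO replicate 9. Pglyrp3 was not tested, with 0, 1 and 0 reads in wild type and 5, 5 and 2 reads in p63 alphaKO. The pooled rate ratio, p63 alphaKO over wild type, was 16.6 (exact 95% interval 2.46 to 711, which covers counting error alone).

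S100a genes lay on both sides of 0. Of 13 tested, 5 lay lower and 8 higher, with a median log2 fold change of 0.13, and the groups overlapped for all 13. Among the 41 other tested members, 27 lay lower with a median of -0.28. The S100a count turned with p63 alphaKO replicate 11, without which 9 of 13 lay lower (median -0.14), and with wild type replicate 13, without which 7 of 13 did (median -0.06). The difference between the families was not tested. S100a7a, the mouse relative of psoriasin, was at 4.71, 10.3 and 17.5 CPM in wild type, against 23.8, 11.3 and 31.7 CPM in p63 alphaKO. Its highest values were those of p63 alphaKO replicates 9 and 11, and its log2 fold change was 1.02 (SE 0.45, limma adjusted p = 0.767). Without wild type replicate 13 it was 0.58, under 2-fold. S100a8 and S100a9 encode the subunits of calprotectin. S100a8 was at 384, 393 and 596 CPM in wild type, against 488, 579 and 613 CPM in p63 alphaKO (0.31, 95% interval -0.17 to 0.80). S100a9 was at 464, 468 and 618 CPM in wild type, against 473, 634 and 911 CPM in p63 alphaKO (0.34, 95% interval -0.18 to 0.87, and 0.10 without p63 alphaKO replicate 11). Neutrophils also make calprotectin. Of 12 neutrophil and immune markers 8 had no read in any library and all 12 summed to at most 2.28 CPM. The part of neutrophils was not tested.

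S100a6, encoding calcyclin, was at 4963, 6304 and 10420 CPM in wild type, against 5888, 4657 and 12160 CPM in p63 alphaKO. The high libraries were wild type replicate 15 and p63 alphaKO replicate 11, the libraries that stood apart on the first principal component. The fitted log2 fold change was 0.01 (SE 0.34, 95% interval -0.71 to 0.73, limma adjusted p = 0.998) and took the opposite sign under TMM and quantile scaling (-0.0087 and -0.004). S100a4, a motility-linked protein also made by fibroblasts, was at 135, 164 and 410 CPM in wild type, against 117, 124 and 202 CPM in p63 alphaKO (-0.54, and -0.06 without wild type replicate 15), high in the same libraries. Those 2 libraries had fibroblast marker sums of 16.84 and 5.88 CPM, against 16.89 to 43.36 CPM in the others. The part of fibroblasts was not tested. S100a4 shares 36.3% to 80.1% of its 50-base end words, and S100a3 up to 34.7%, with 1 predicted gene.

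S100a11 was at 4215, 3926 and 2806 CPM in wild type, against 3348, 2392 and 4039 CPM in p63 alphaKO, a log2 fold change of -0.17 (SE 0.26, limma adjusted p = 0.966). S100a10, the annexin A2 partner, was at 568, 598 and 559 CPM in wild type, against 399, 395 and 989 CPM in p63 alphaKO (-0.09). For this gene p63 alphaKO replicate 11 was above every other library and replicates 9 and 10 were below. S100a14 was at 771, 697 and 807 CPM and at 840, 597 and 1132 CPM (0.13, SE 0.24, limma adjusted p = 0.985). S100a16 was at 322, 353 and 585 CPM and at 367, 214 and 478 CPM (-0.27). Both were lowest in p63 alphaKO replicate 10.

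S100a13 was at 22.6, 32.0 and 24.1 CPM in wild type, against 32.9, 16.7 and 29.4 CPM in p63 alphaKO, a log2 fold change of -0.04. S100a3 was at 11.0, 13.4 and 19.1 CPM and at 11.4, 11.3 and 31.7 CPM (0.18). S100a2 (mean 3.68 CPM, 0.30) lies inside the annotated span of S100a3 on the same strand, so reads of the pair are uncertain. S100a1 had 2 to 21 reads per library (0.42), and S100a5 had none, which allows up to 0.93 to 1.76 CPM, depending on the library.

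The p63 alphaKO cultures differed from one another across the locus. Within p63 alphaKO the SD of log2(CPM + 1) over the 3 libraries had a median of 0.75 over the tested members and 0.40 over all tested genes. Within wild type the medians were 0.30 and 0.33. The SD was larger in p63 alphaKO than in wild type for 45 of 54 members, 83.3%, and for 58.9% of all tested genes. Of the 54 members 27, or 50%, had their lowest value in p63 alphaKO replicate 9 and 23, or 42.6%, their highest in replicate 10; over all tested genes these shares were 14.1% and 17.5%. Members share libraries and transcript ends and are not replicates of a condition, so these shares are descriptions and carry no test. Among the Lce genes replicate 9 was the lowest library for 17 of 20, and among the S100a genes replicate 10 was the lowest for 7 of 13 and replicate 11 the highest for 8.

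**Figure D4:**
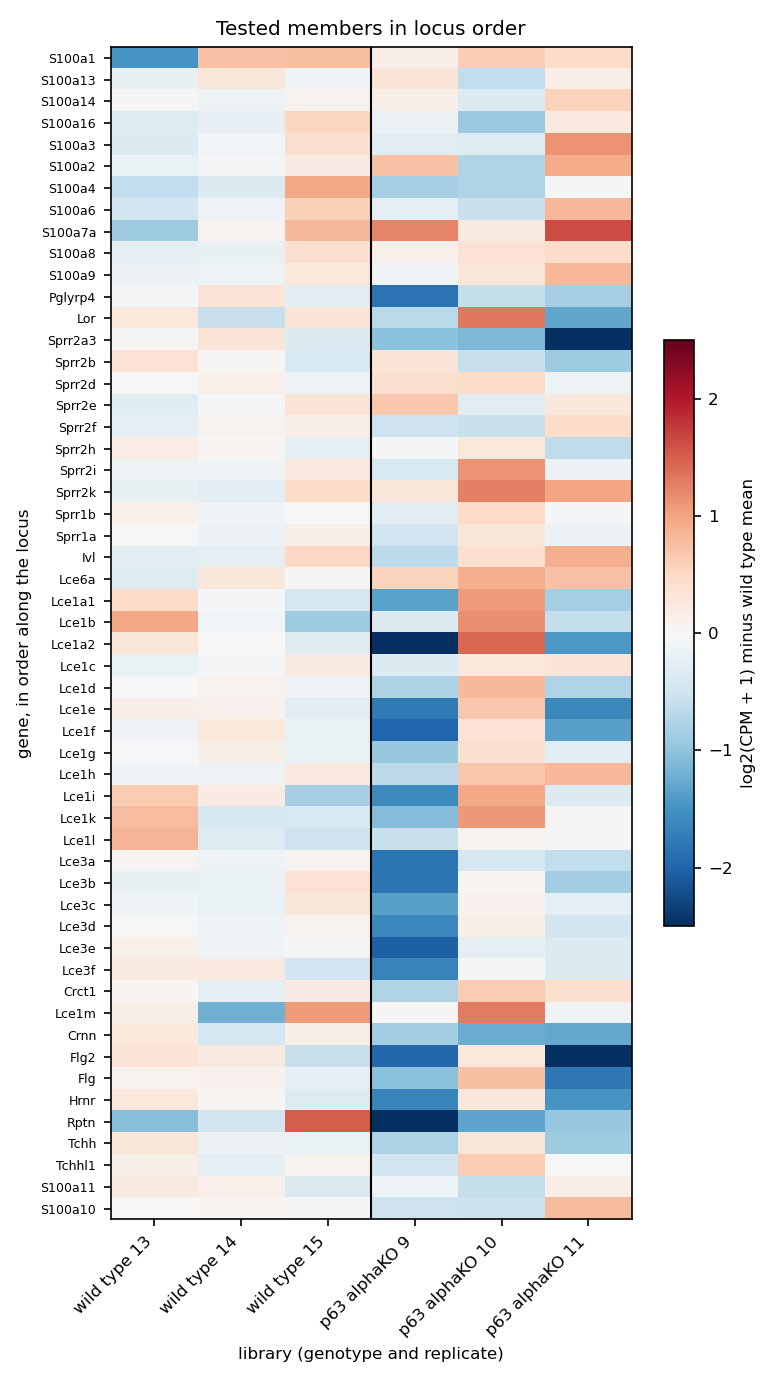
Log2(CPM + 1) of each tested member minus its wild type mean (colour, blue below and red above, differences past the ends of the colour bar drawn at its ends), with genes in locus order from top to bottom and 1 column per library. All 6 Lce3 and all 7 fused-type genes and 12 of 13 Lce1 genes are blue in p63 alphaKO replicate 9, and 12 of 13 Lce1 genes lie above every wild type library in replicate 10. Lce6a is red in each p63 alphaKO column.

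Each p63 alphaKO culture had its own profile across the subfamilies. In replicate 9 the Lce3 genes stood at a median of 1.74 log2 units under the wild type mean (a difference of -1.74), the Lce1 genes at -0.95 and the fused-type genes at -1.03. In replicate 11 the fused-type genes were at -1.28, the Lce3 genes at -0.41 and the S100a genes at 0.58. In replicate 10 the Lce1 genes were at 0.80, the Lce3 genes at 0.01 and the S100a genes at -0.54. Replicates 9, 10 and 11 held 2188705, 2999246 and 1699716 reads, so the library in which the late envelope genes were highest was also the deepest of the 3. The part of depth was not tested.

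The keratins of the same cells followed another pattern. Krt1, the suprabasal keratin, was at 185, 249 and 401 CPM in wild type, against 74.4, 31.0 and 47.6 CPM in p63 alphaKO, and it fell by 2.44 on the log2 scale (SE 0.32, limma adjusted p = 0.00686). The call was made in every fit run except limma without the mean-variance trend. Its partner Krt10 was at 46.5, 42.9 and 26.7 CPM in wild type, against 14.2, 7.66 and 14.7 CPM in p63 alphaKO (-1.60, limma adjusted p = 0.286). Both keratins were at their lowest in p63 alphaKO replicate 10, the library with the highest Flg, Lor and summed Lce1. Krt5 (-0.14) and Krt14 (-0.03) overlapped between the groups.

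Of 16 envelope partners outside the locus, such as the crosslinking enzymes Tgm1, Tgm3 and Tgm5 and the scaffold genes Evpl and Ppl, 14 were tested. None passed, 13 lay lower (median log2 fold change -0.23), and none was at an unadjusted p under 0.05. Over all genes tested 49.3% lay lower, with a median of 0.01. Of 23 genes listed as regulators of late differentiation, a list that also holds the adhesion gene Cdh1, 21 lay lower (median -0.16) and none passed. Cebpb, a transcription factor of the suprabasal layers, was at 55.3, 59.1 and 40.3 CPM in wild type, against 37.0, 37.7 and 20.6 CPM in p63 alphaKO (-0.71, limma adjusted p = 0.758). It was the 1 regulator of 23 at an unadjusted p under 0.05, where 6.36% of all genes were, so that count does not exceed the background. Both counts of lower genes rested on p63 alphaKO replicate 11. Without it 6 of 14 partners (median 0.04) and 10 of 23 regulators (median 0.05) lay lower, against 45.8% of all genes (median 0.04). The 3 further genes of the locus that were tested overlapped between the groups, Kprp (-0.45), Prr9 (-0.03) and 2310050C09Rik (-0.72), each highest in p63 alphaKO replicate 10. Lelp1 had no read, and Smcp had reads in p63 alphaKO replicate 10 alone (3.33 CPM).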

How the data were processed

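The deposited values are CPM, which the authors rounded to 2 decimals; each column is 1 library per the labels. The submitters' processing notes list STAR, HTSeq and mm10 without saying what each did. No version, annotation, strand setting or filter, nor any use of molecular identifiers, is given in the sources used here. Of the values above 0, 100% lay within 0.1 read of a whole multiple of 1 read, which gave back reads per library. Reads are not independent molecules, so counting intervals and floors cover counting error only.

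Testing covered genes averaging 1 CPM or more. They were fitted with limma 3.58.1 (R 4.3.3, mean-variance trend) on log2(CPM + 1), with Benjamini-Hochberg adjustment over 11716 genes; fold changes on this scale understate the change of low genes, and 95% intervals are limma's. edgeR 4.0.16 and DESeq2 1.42.0 on recovered reads were alternatives: edgeR called 2 of all genes tested and DESeq2 18, against 5 by limma. The groups share no replicate numbers. Every member of at least 1 CPM was named, with each library's value at 10 CPM or more or an unadjusted p under 0.05, and with SE and adjusted p at an unadjusted p under 0.05 and for the 3 highest members of the Sprr, Lce, S100a, fused-type and other families; Lce6a was given them after its values were seen. Members, lists and alternatives were chosen with earlier results of these data known. Marker lists were basal and suprabasal keratinocyte, melanocyte, fibroblast, skeletal muscle, neutrophil and immune, endothelium, and mucosal and follicle keratinocyte. The last summed to 15515 to 26482 CPM, nearly all of it Krt6a, Krt16 and Krt17. In that list Krt13 had no read, Krt15 was at 1.18 to 17.79 CPM and Krt4 at 13.66 to 85.45 CPM. Pathway lists were keratins, envelope partners, regulators and other genes of the locus. Csta2 and Csta3 were not listed under these symbols. Coordinates are from GENCODE vM21 (GRCm38). The test was also run on data simulated from the means and dispersions of these libraries, and no result here rests on that run.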

Additional observations from a re-analysis of the deposited data

How the results depend on the processing

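Over pseudocounts of 0.5 and 5 CPM, other filters, scalings, tools and libraries left out, no member was called except Sprr2a3. It passed with DESeq2 and without wild type replicate 15 and p63 alphaKO replicate 11. In those fits 18 and 48 of all genes tested passed. With 1 library left out, 0 members passed each time. Members at an unadjusted p under 0.05 numbered 11, but 7 without the trend, 7 with edgeR, 7 with DESeq2, 5 with copies summed per subfamily, and 4 to 20 with 1 library left out; 24 to 37 lay lower, with medians from -0.30 to 0.02. With copies summed, 17 of 29 lay lower, since fewer rows were tested. Of the keratins, partners and regulators 1 passed (Krt1), 0 without the trend, and 2 (with Krt10) with DESeq2 or without both libraries. The log2 fold change of Lce6a was 0.47 with a pseudocount of 5. S100a6 changed sign under TMM (-0.0087), quantile scaling (-0.004) and without both libraries (-0.10), as did S100a14 (-0.0494) and Lor (0.48) there, and Lor with edgeR (0.15) and DESeq2 (0.15). The cause was not tested. With 1 library left out, the sign changed for 27 of the 54 members, among them S100a6 (-0.39 to 0.31), Crct1 (-0.17 to 0.52), Lce1g (-0.62 to 0.0519), Lor (-0.99 to 0.31), Sprr1a (-0.32 to 0.0736), Sprr1b (-0.16 to 0.23), S100a11 (-0.35 to 0.0328), S100a14 (-0.10 to 0.37), Ivl (-0.12 to 0.66) and Sprr2h (-0.33 to 0.11). No paired analysis was possible because the groups share no replicate numbers. Depth limits the genes of few reads, such as Lce1m, Lce1l and Lce1c.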
